A study of Mus musculus with 4 samples.

Results

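The conjugation enzymes of the liver were described across 4 libraries of hepatic RNA. Members were chosen by gene symbol: the glutathione S-transferases (GST), the microsomal glutathione S-transferases (MGST), the UDP-glucuronosyltransferases and related glycosyltransferases (UGT), and the sulfotransferases (SULT). Of 24346 symbols listed, 63 were members, with 21 GST, 3 MGST, 20 UGT and 19 SULT genes. All mice were male ob/ob animals, whose lack of leptin makes them obese whatever they eat, and this limits all 4 groups as a model of diet alone. The mice were 6 weeks old at the start and were fed for 4 weeks. CD was a regular chow and WD a high fat diet with cocoa butter in place of corn oil and more sucrose, and both contained 1% cholesterol. CD+7KC and WD+7KC were the same diets with 0.01% 7-ketocholesterol (7KC), an oxidized cholesterol. Each group had 1 library, and the number of mice behind a library is not given in the sources used here. The differences therefore lack any replicate error, and none was tested.

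Conjugation is the step in which the liver joins a water-soluble group to a drug, hormone, bile acid or reactive lipid so that it can be excreted. GST enzymes add glutathione to electrophiles such as lipid peroxidation products, UGT enzymes add a sugar, usually glucuronic acid, and SULT enzymes add a sulfate group. Hepatocytes hold most of these enzymes, many of them are encoded in clusters of similar genes, and several are known to differ between male and female mouse liver.

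Values are FPKM, read numbers scaled to transcript length and to the mapped reads of the library. Changes are log2 ratios after adding 0.1 FPKM to both values, so that the change of a low gene is understated. A gene was counted as higher or lower when its log2 change was above 1 or below -1, which is a 2-fold difference, and genes were counted only if their 4 values averaged 1 FPKM or more. Outside these counts, higher and lower compare the printed values only. This left 10686 symbols and 44 members, with 19 GST, 2 MGST, 14 UGT and 9 SULT genes. Of the other 19 members, 5 were listed at 0 in every library (Gstt4, Sult1c1, Sult2a3, Sult2a4 and Sult2a6), and 14 were above 0 in at least 1 library with means of at most 0.465 FPKM. The steps between low FPKM values correspond to 9360000 to 12110000 fragments per library. Summed FPKM was 715605 on CD, 696062 on CD+7KC, 699534 on WD and 602059 on WD+7KC. Rescaling all libraries to equal sums (TPM) moved the median change of all tested genes in WD+7KC relative to WD from -0.03 to 0.18, so that small negative changes in WD+7KC depend on the scaling. All 6 hepatocyte markers examined were present, as the liver label requires. They summed to 51535 FPKM on CD, 43467 on CD+7KC, 52863 on WD and 41678 on WD+7KC. Summed macrophage markers were 124 FPKM on CD, 174 on CD+7KC, 176 on WD and 341 on WD+7KC, and summed endothelial markers were 28.7, 31.4, 20.9 and 58.3 FPKM in the same order. In whole liver, fewer cells of a type and less RNA per cell cannot be told apart.

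Glutathione transferases dominated the conjugation transcripts. The 63 members together made up 2.64% of summed FPKM on CD, 3.46% on CD+7KC, 2.52% on WD and 2.43% on WD+7KC. The cytosolic GST genes summed to 6976 FPKM on CD, 12142 on CD+7KC, 9462 on WD and 8297 on WD+7KC. Thus the GST sum was 1.74-fold higher in CD+7KC than in CD, and 1.14-fold lower in WD+7KC than in WD, where the direction turned after rescaling to equal sums (13526 in WD and 13781 in WD+7KC). The MGST genes summed to 9228, 9110, 6247 and 4700 FPKM, the UGT genes to 2341, 2444, 1685 and 1418, and the SULT genes to 374, 359, 217 and 230, in the order CD, CD+7KC, WD and WD+7KC. The MGST and UGT sums were lower in both WD libraries than in both CD libraries, and so was the SULT sum.

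**Figure D1:**
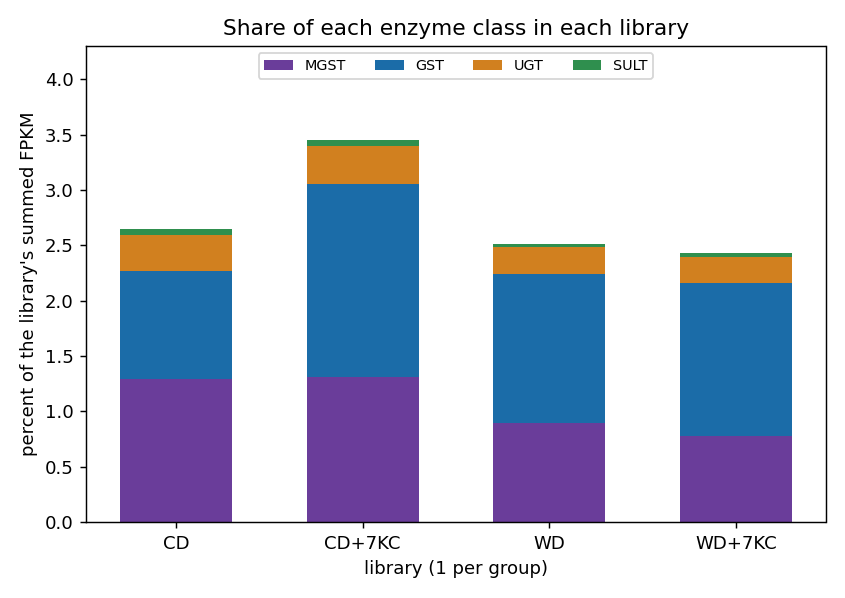
Stacked bars give the percent of each library's summed FPKM (vertical axis) taken by the MGST, GST, UGT and SULT genes in the 4 libraries (horizontal axis, 1 library per group). The CD+7KC bar is the tallest at 3.46%, with GST genes at 1.74%, and the other 3 bars reach 2.43% to 2.64%.

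In the GST and MGST classes 1 gene led, with Gstm1 at 40.1% to 51.7% of GST FPKM and Mgst1 at 96.2% to 99.2% of MGST FPKM over the 4 libraries. Mgst1, the glutathione transferase of the endoplasmic reticulum and outer mitochondrial membrane, was at 9152 FPKM on CD, 9002 on CD+7KC, 6064 on WD and 4521 on WD+7KC. It ranked 7th among all symbols in both CD libraries, 13th in WD and 18th in WD+7KC. Gstm1, the most abundant cytosolic GST here, ranked 32nd on CD, 11th on CD+7KC, 17th on WD and 19th on WD+7KC. Gsta3, an alpha-class enzyme known for detoxifying aflatoxin epoxide in mice, was at 1377 FPKM on CD, 1645 on CD+7KC, 1148 on WD and 936 on WD+7KC. Ugt2b36 and Ugt2b5, of the family that glucuronidates steroids and drugs, were the most abundant UGT genes. Ugt2b36 was at 470, 516, 347 and 296 FPKM, and Ugt2b5 at 417, 426, 287 and 247 FPKM, in the order CD, CD+7KC, WD and WD+7KC. Both were lower in each WD library than in each CD library. Sult1a1, the phenol sulfotransferase, had the highest SULT mean, at 114 FPKM on CD, 131 on CD+7KC, 132 on WD and 151 on WD+7KC. Its share of all SULT FPKM was 30.6% in CD and 65.6% in WD+7KC.

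**Figure D2:**
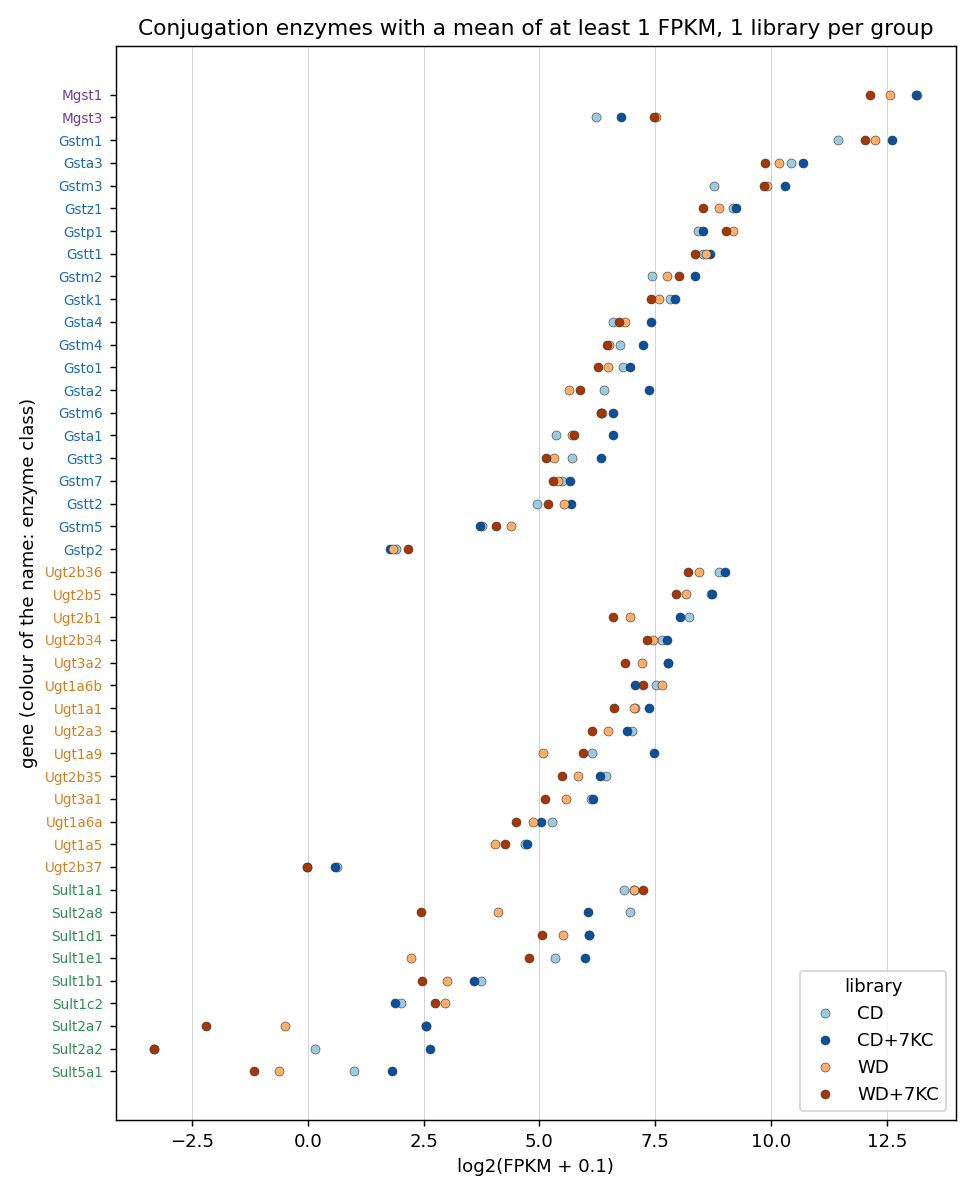
Each line is a member that averaged 1 FPKM or more, grouped by class and ordered by mean, and the 4 points give log2(FPKM + 0.1) in the 4 libraries (1 per group). Most GST lines have CD+7KC as the rightmost point, and Sult2a8, Sult2a7, Sult2a2, Sult5a1 and Sult1e1 show the widest spread between libraries.

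The comparison of CD+7KC with CD asks what 7KC was accompanied by on regular chow. Changes were above 0 for 4 of 4 alpha-class, 6 of 7 mu-class, 3 of 3 theta-class and 1 of 2 pi-class GST genes, beside 48.1% of all tested symbols. In the same order of classes, 1, 2, 0 and 0 genes passed the 2-fold threshold. At the 2-fold threshold, 5 of 44 members were higher, against 1.18% of all tested symbols, and 0 were lower, against 0.861%. The 5 were Gstm3, Gstm1, Gsta1, Ugt1a9 and Sult2a2. Sult2a2, at 6.10 FPKM in CD+7KC and at most 1.02 in the other libraries, reached the mean of 1 FPKM only through CD+7KC. Its count as higher there is therefore not independent of the filter. Gsta1 and Ugt1a9 have under 50% of their 75-base windows in no other gene, and without such members 3 were higher. At a 1.5-fold threshold, 12 members were higher, against 4.39% of all tested symbols, and 1, Sult2a8, was lower, against 3.04%. Of those 12, 8 were GST genes (Gsta1, Gsta2, Gsta4, Gstm1, Gstm2, Gstm3, Gstt2 and Gstt3). The 12 include Sult2a2 and Sult5a1, which would average below 1 FPKM without CD+7KC. The median change was 0.26 over 19 GST genes, 0.02 over 14 UGT genes and -0.00 over 9 SULT genes, beside -0.00 over all tested symbols. CD+7KC held the highest of the 4 values for 16 of 19 GST genes, under the deposited scaling, equal sums and median-ratio scaling alike, beside 22.9% of all tested symbols under the deposited scaling.

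The mu-class genes lie in a cluster of 7 genes over 149 kb on chromosome 3, in the order Gstm5, Gstm7, Gstm6, Gstm3, Gstm2, Gstm1 and Gstm4. Gstm3 (chr3:107963696-107969283, minus strand, mm10) was at 436 FPKM on CD, 1256 on CD+7KC, 961 on WD and 926 on WD+7KC. The CD library stood below the other three, and the change in CD+7KC was 1.53, with a counting interval of 1.48 to 1.57 (exact, 95%, from the estimated reads without the added 0.1). Gstm1 (chr3:108012255-108017973, minus strand) was at 2798 FPKM on CD, 6277 on CD+7KC, 4880 on WD and 4193 on WD+7KC, a change of 1.17 in CD+7KC (1.15 to 1.18). Counting intervals cover the sampling of reads only, not the variation between mice. Gstm2, between them, was at 173, 328, 216 and 260 FPKM, a change of 0.92 in CD+7KC. At the ends of the cluster Gstm5 was at 13.5 FPKM on CD, 13 on CD+7KC, 20.7 on WD and 16.7 on WD+7KC, and Gstm4 at 107 FPKM in CD and 151 in CD+7KC. Thus the neighbours Gstm3, Gstm2 and Gstm1 were each 1.90-fold to 2.88-fold higher with 7KC on chow, whereas the log2 changes of Gstm5, Gstm7, Gstm6 and Gstm4 were -0.06, 0.16, 0.26 and 0.49. The share of 75-base windows found in no other gene was 85.2% for Gstm1 and 78.4% for Gstm3.

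The alpha-class genes Gsta1, Gsta2 and Gsta4 lie within 173 kb on chromosome 9, and Gsta3 lies on chromosome 1. Alpha-class enzymes also reduce lipid hydroperoxides. Gsta1 (chr9:78230656-78242684, plus strand) was at 41.2 FPKM on CD, 96.4 on CD+7KC, 51.8 on WD and 53.6 on WD+7KC, a change of 1.22 in CD+7KC. Only 13.7% of its 75-base windows were found in no other gene, and 76.2% were shared with Gm3776, which was itself at 10.3, 25.6, 11.9 and 13.5 FPKM, so that the 2 genes cannot be separated well. Gsta2 (chr9:78331018-78355788, minus strand) was at 83.9 FPKM on CD, 164 on CD+7KC, 49.8 on WD and 59.1 on WD+7KC, and its change of 0.96 in CD+7KC was just inside the threshold, with 53.1% of its windows in no other gene. Gsta4, which acts on the lipid peroxidation product 4-hydroxynonenal, was at 96.2, 169, 115 and 106 FPKM, a change of 0.81. The median over the 4 alpha-class genes was 0.89.

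The 250 bases before the RefSeq start (GRCm38.p6) are shown for 4 GST genes that were among the highest in CD+7KC, to let the sequences of genes with like changes be compared. Capitals mark matches on either strand to the letters TATAAA (the box found before many starts), TNGCGTG (the core of the xenobiotic response element) and TTCNNNGAA (a STAT-type site), and no marked matches overlap. Gsta1 spans chr9:78230419-78230668 (plus strand), Gsta2 chr9:78347146-78347395 (minus), Gstm1 chr3:108017819-108018068 (minus) and Gstm3 chr3:107969175-107969424 (minus).
Gsta1: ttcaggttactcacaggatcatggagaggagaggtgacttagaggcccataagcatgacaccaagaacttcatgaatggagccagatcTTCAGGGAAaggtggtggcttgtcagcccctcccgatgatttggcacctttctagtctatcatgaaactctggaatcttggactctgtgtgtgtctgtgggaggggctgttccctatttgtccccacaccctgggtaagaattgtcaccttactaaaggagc
Gsta2: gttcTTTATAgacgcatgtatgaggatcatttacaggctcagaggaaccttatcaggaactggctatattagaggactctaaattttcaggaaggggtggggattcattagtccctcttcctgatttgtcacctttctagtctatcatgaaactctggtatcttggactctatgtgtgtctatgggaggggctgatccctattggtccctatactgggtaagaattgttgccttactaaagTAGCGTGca
Gstm1: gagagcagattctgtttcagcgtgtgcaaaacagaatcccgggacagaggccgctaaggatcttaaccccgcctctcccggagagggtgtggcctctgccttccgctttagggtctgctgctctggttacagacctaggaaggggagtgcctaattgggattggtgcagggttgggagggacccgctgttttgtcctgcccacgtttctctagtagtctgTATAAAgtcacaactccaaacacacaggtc
Gstm3: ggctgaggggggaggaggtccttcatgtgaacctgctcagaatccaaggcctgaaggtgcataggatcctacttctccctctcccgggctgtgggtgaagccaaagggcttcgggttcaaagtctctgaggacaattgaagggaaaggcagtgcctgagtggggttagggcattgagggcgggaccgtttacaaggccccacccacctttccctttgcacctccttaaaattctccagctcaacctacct

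The longest identical run was 29 bases between Gsta1 and Gsta2 and 10 bases between Gstm1 and Gstm3, beside 8 bases between Gsta1 and Gstm1, which are of different classes. Gstm1 has 2 RefSeq starts. The window printed is that of the start with a TATAAA match, which began 30 bases before it, and the window of the other start (chr3:108017974-108018223) held none of the motifs. The letters TGACNNNGC, the core of the antioxidant response element through which Nrf2 acts, were in 4 of 67 promoters of 55 matched members (6.0%, in Gsta3, Gstm5, Gstm7 and Mgst1), beside 10.2% of all 32851 promoters, and in none of the 4 shown. The xenobiotic core was in 4.5% of member promoters and 4.1% of all, the STAT-type letters in 6.0% and 7.0%, and TATAAA in 17.9% and 12.4%. These matches are descriptions of the letters in this window only.

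Theta-class genes act on small halogenated compounds, and 0 of 3 passed the 2-fold threshold in CD+7KC relative to CD, with a median change of 0.63. Gstt2 was at 30.6 FPKM on CD, 51.1 on CD+7KC, 46.0 on WD and 36.5 on WD+7KC (0.74 in CD+7KC), and Gstt3 was at 51.7, 79.8, 39.6 and 35.1 FPKM (0.63). In contrast, Gstz1, which works in tyrosine breakdown, was at 584 and 611 FPKM in CD and CD+7KC, and Gstp1, the pi-class enzyme, at 345 and 370 FPKM. The pi genes share sequence, with 42.3% unique windows in Gstp1 and 31.8% in Gstp2, which was at 3.66, 3.32, 3.49 and 4.37 FPKM. Gstp2 and Gstm5 were the 2 GST genes with a change below 0. The changes of Gstk1, Gsto1 and Gstt1 were 0.10, 0.15 and 0.17 in the same comparison.

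**Figure D3:**
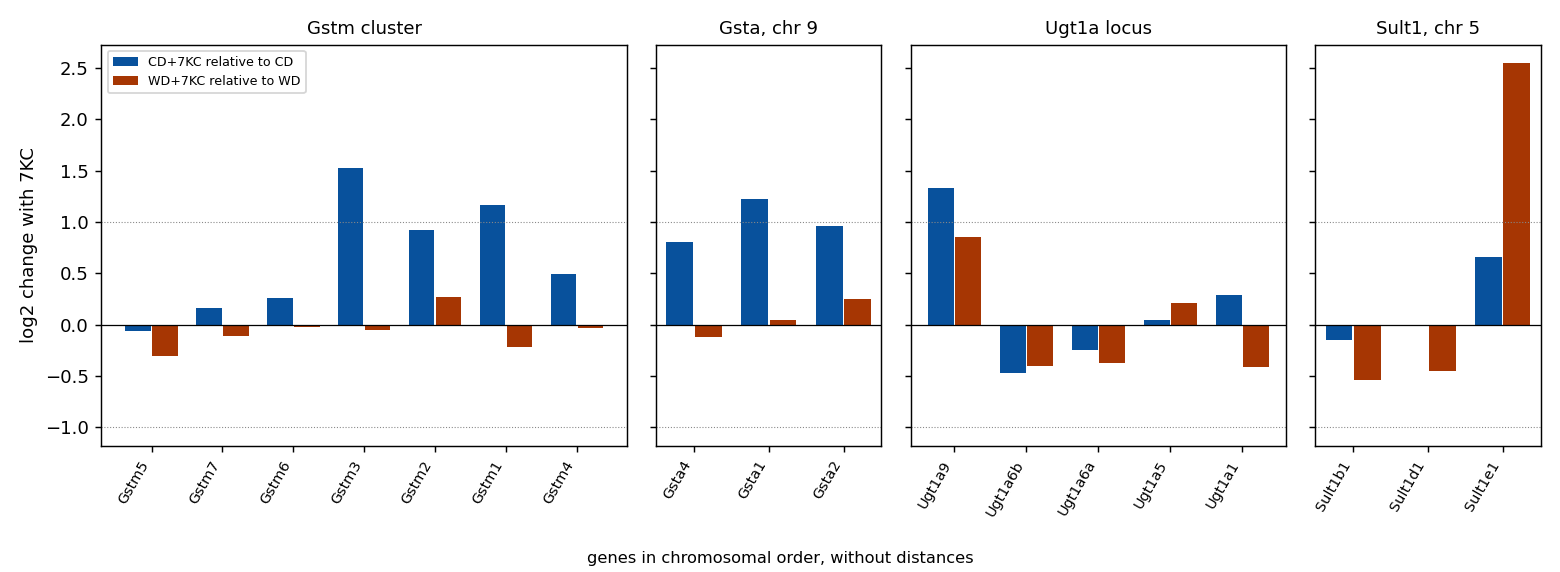
Bars give the log2 change with 7KC on the vertical axis for tested genes in chromosomal order in 4 clusters, in CD+7KC relative to CD (blue) and WD+7KC relative to WD (red), with 1 library per group and dotted lines at 1 and -1. Blue bars are tallest in the middle of the Gstm cluster and at Ugt1a9, and the tallest red bar is Sult1e1 at 2.55.

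The comparison of WD+7KC with WD asks the same question on the high fat diet. At the 2-fold threshold 1 of 44 members was higher, against 2.71% of all tested symbols, and 2 were lower, against 0.767%. All 3 were SULT genes: Sult1e1 was higher, and Sult2a7 and Sult2a8 were lower. At 1.5-fold, 0 of 19 GST genes were higher, against 7.49% of all tested symbols, and 0 were lower, against 3.03%. The GST median was -0.15 (0.07 after rescaling to equal sums), the UGT median -0.35 (-0.13) and the SULT median -0.45 (-0.23). The median over the members was -0.21, or 0.00 after rescaling, beside -0.03 and 0.18 over all tested symbols. Of the members 8 were above 0 and 35 below, beside 4841 and 5825 of all tested symbols. After rescaling 22 members were above 0 and 21 below, beside 8132 and 2534 of all tested symbols.

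The changes with 7KC on the 2 diets come from separate pairs of libraries. Of 44 members, 22 had a change above 0 on CD and below 0 on WD, or 50% beside 24.5% of all tested symbols, and among GST genes it was 14 of 19. After rescaling to equal sums the counts were 13 of 44 members (29.5%, beside 12%) and 5 of 19 GST genes. The change under WD minus that under CD was past -1 for 7 members (Gsta1, Gstm1, Gstm3, Gstt2, Sult5a1, Sult2a7 and Sult2a2), against 1.65% of all tested symbols. Sult2a2 was at 0 in both WD libraries and reached the mean of 1 FPKM only through CD+7KC. Sult5a1 also reached it only through CD+7KC, and Sult2a7, below 1 FPKM in both WD libraries, passed through the CD libraries. The difference was past 1 for 1 member, Sult1e1, against 3.06%. The median of this difference was -0.40 over the members and -0.02 over all tested symbols, and it was -0.22 and 0.15 after rescaling. Whether the changes differ between diets could not be tested with 1 library per group.

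**Figure D4:**
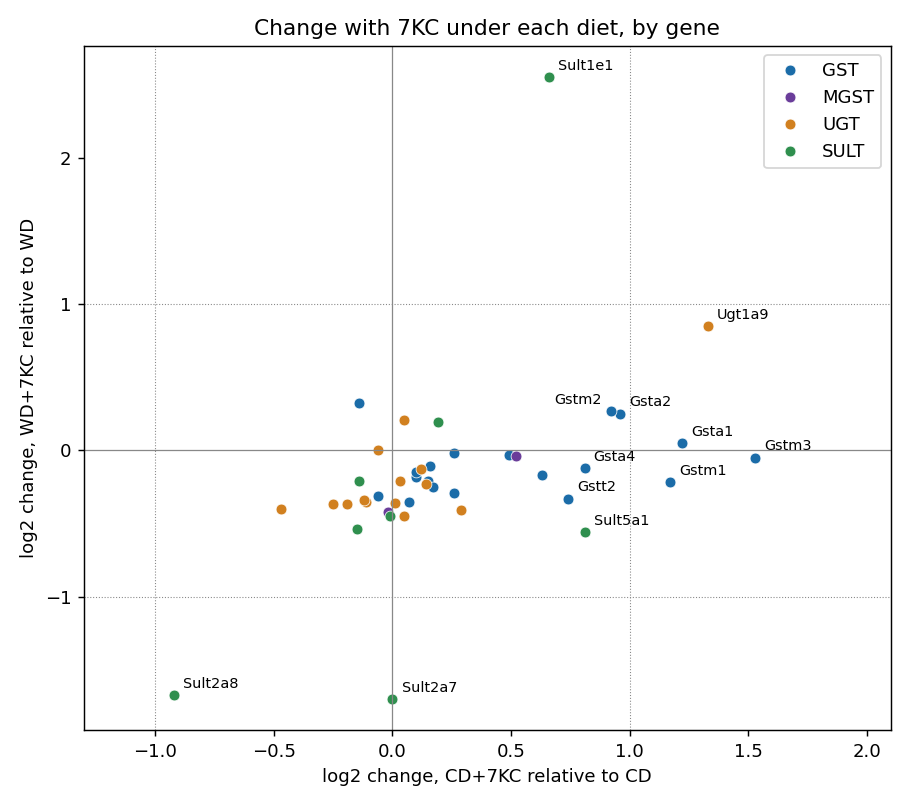
Each point is a tested member, with the log2 change in CD+7KC relative to CD on the horizontal axis and that in WD+7KC relative to WD on the vertical axis, coloured by class, with dotted lines at 1 and -1. Sult2a2, listed at 0 in both WD libraries, is left out. The GST points spread to the right up to 1.53 but stay within -0.35 and 0.32 on the vertical axis, and Sult1e1 stands alone at the top.

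Among UGT genes, Ugt1a9 stood apart from its neighbours. Ugt1a9 conjugates phenols and belongs to a locus of 8 members over 165 kb on chromosome 1 (Ugt1a9 at chr1:88070800-88218997, plus strand), whose genes share their last exons and differ in the first. It was at 70.7 FPKM on CD, 178 on CD+7KC, 33.8 on WD and 61.0 on WD+7KC. It was higher with 7KC on both diets, by 1.33 on CD and 0.85 on WD, and the latter was inside the threshold (1.07 after rescaling to equal sums). Among its neighbours, Ugt1a1, which conjugates bilirubin, was at 134, 164, 131 and 98.3 FPKM, and Ugt1a6b, which conjugates planar phenols, was at 184, 133, 200 and 151 FPKM, with changes of -0.47 with 7KC on CD and -0.40 on WD. Ugt1a9 made up 15.6% of Ugt1a FPKM on CD, 33.3% on CD+7KC, 8.2% on WD and 17.3% on WD+7KC. The shared exons limit these values: 40.6% of the windows of Ugt1a9, 42.3% of Ugt1a1, 24.6% of Ugt1a6b and 0.0% of Ugt1a6a were in no other gene, and no counting interval is given for them. The 250 bases before its RefSeq start (chr1:88070529-88070778, plus strand) are shown because this start belongs to Ugt1a9 and not to the rest of the locus, and they held none of the motifs searched, so no letter is in capitals.
Ugt1a9: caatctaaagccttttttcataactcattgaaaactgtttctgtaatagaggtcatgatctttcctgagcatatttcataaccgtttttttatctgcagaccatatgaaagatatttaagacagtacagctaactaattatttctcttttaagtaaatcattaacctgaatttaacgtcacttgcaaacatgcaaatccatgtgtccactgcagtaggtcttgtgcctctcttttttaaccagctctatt

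The comparison of the diets without 7KC, WD with CD, showed mostly lower values of SULT and UGT genes in WD. Of 44 members, 2 were higher, against 2.61% of all tested symbols, and 7 were lower, against 2.04%. The 7 were Sult1e1, Sult2a2, Sult2a7, Sult2a8, Sult5a1, Ugt1a9 and Ugt2b1. Of these, Sult2a2, Sult2a7 and Sult5a1 were below 1 FPKM in both WD libraries and passed the filter through the CD libraries. Their counts as lower, and the SULT median that includes them, are therefore not independent of the filter. The median was -1.62 over 9 SULT genes and -0.54 over 14 UGT genes, beside 0.02 over 19 GST genes and -0.01 over all tested symbols. Changes were below 0 for 13 of 14 UGT genes, beside 50.7% of all tested symbols, and for all 6 tested Ugt2b genes, with a median of -0.58. Ugt2b1 (chr5:86916638-86926530, minus strand), a UGT of steroids and drugs, was at 298 FPKM on CD, 261 on CD+7KC, 124 on WD and 96.1 on WD+7KC. It was lower in both WD libraries, and its change in WD relative to CD was -1.27 (-1.33 to -1.21). The change of Ugt1a9 was -1.06. The 2 members higher in WD were glutathione transferases: Gstm3 by 1.14, and Mgst3, a membrane enzyme that also makes leukotriene C4, by 1.28 (1.16 to 1.41). Mgst3 was at 75.1 FPKM on CD, 108 on CD+7KC, 183 on WD and 178 on WD+7KC, whereas the change of Mgst1 was -0.59.

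The SULT genes spanned the widest range of changes. Sult1e1 (chr5:87575969-87591594, minus strand), the oestrogen sulfotransferase, was at 40.2 FPKM on CD, 63.6 on CD+7KC, 4.61 on WD and 27.5 on WD+7KC. The WD library was lowest, and 7KC was accompanied by higher values on both diets: the change was 2.55 on WD (2.12 to 3.06) and 0.66 on CD (0.49 to 0.83). The change in WD relative to CD was -3.10 (-3.60 to -2.68), from an estimated 458 reads in CD and 45 in WD. On chromosome 5 beside it, Sult1d1, the catecholamine sulfotransferase, was at 67.3, 67.0, 45.6 and 33.4 FPKM, and Sult1b1, which acts on thyroid hormones, was at 13.3, 11.9, 7.91 and 5.40 FPKM. Both were lower in each WD library than in each CD library. Sult1c2 went the other way, at 3.96, 3.59, 7.71 and 6.65 FPKM, and its change of 0.94 in WD relative to CD was just inside the threshold.

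The Sult2a cluster, 8 members over 870 kb on chromosome 7, encodes sulfotransferases of hydroxysteroids and bile acids. Sult2a8 (chr7:14410686-14446769, minus strand), which acts on bile acids in male mouse liver, was at 125 FPKM on CD, 66.1 on CD+7KC, 17.2 on WD and 5.33 on WD+7KC. Each library was lower than the one before it in that order, with changes of -0.92 for CD+7KC relative to CD, -2.86 for WD relative to CD and -1.67 for WD+7KC relative to WD. It has more than 1 RefSeq mRNA, so no counting interval is given. Its neighbour Sult2a7 was at 5.79, 5.77, 0.612 and 0.119 FPKM, from an estimated 44.1, 44.0, 4.0 and 1.0 reads. The lower value in WD than in CD (-3.05) had a counting interval of -5.18 to -1.78, but the interval of the change in WD+7KC relative to WD (-1.70) ran from -7.99 to 0.97, which includes no change at this depth. Sult2a2 was at 1.02 FPKM in CD and 6.10 in CD+7KC, a change of 2.47 (1.32 to 4.12) from an estimated 6.0 and 36.1 reads, and was listed at 0 in both WD libraries. Only 52.8% of its windows were in no other gene. Sult5a1, an orphan sulfotransferase, was at 1.90, 3.41, 0.553 and 0.344 FPKM, with a change of -1.62 in WD relative to CD (-2.57 to -1.02). Sult2b1, which sulfonates cholesterol and oxysterols, was below the filter with a mean of 0.180 FPKM. The windows printed here are those of Sult1e1 (chr5:87591612-87591861, minus strand) and Sult2a8 (chr7:14438552-14438801, minus strand), the SULT genes with opposite changes in WD+7KC, with no match in Sult1e1. Sult2a8 has 2 RefSeq starts: capitals mark a TATAAA match 29 bases before the one printed, and the window of the other (chr7:14446588-14446837) held such a match 223 bases before its start.
Sult1e1: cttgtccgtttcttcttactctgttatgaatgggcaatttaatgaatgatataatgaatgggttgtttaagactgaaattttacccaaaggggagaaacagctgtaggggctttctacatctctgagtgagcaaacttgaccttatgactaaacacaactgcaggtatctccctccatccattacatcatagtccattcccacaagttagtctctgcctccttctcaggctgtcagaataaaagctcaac
Sult2a8: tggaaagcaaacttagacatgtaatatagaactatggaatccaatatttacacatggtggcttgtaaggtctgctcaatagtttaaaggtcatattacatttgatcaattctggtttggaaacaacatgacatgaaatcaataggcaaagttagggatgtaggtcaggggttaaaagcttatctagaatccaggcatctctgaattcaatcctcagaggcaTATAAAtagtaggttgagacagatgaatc

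**Figure D5:**
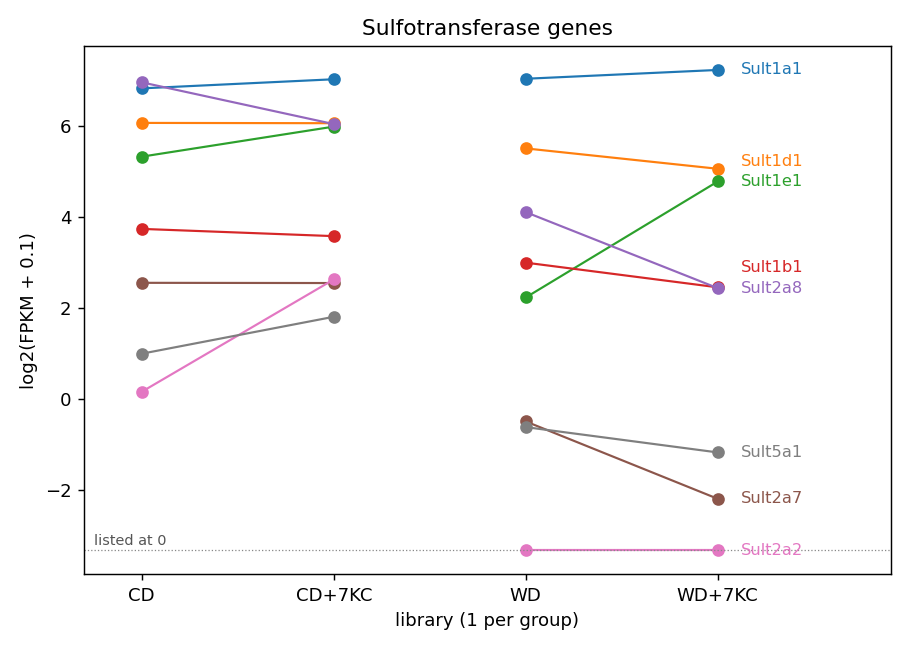
Points give log2(FPKM + 0.1) of 8 SULT genes in the 4 libraries (1 per group), and lines join the libraries without and with 7KC on the same diet. Sult1e1 is at 4.61 FPKM in WD and 27.5 in WD+7KC, Sult2a8 is lower with 7KC on both diets and Sult1a1 stays between 114 and 151 FPKM.

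Between the diets with 7KC, WD+7KC relative to CD+7KC, 12 of 44 members were lower, against 2.81% of all tested symbols, and 0 were higher, against 5.1%. The 12 were Gsta2, Gstt3, Sult1b1, Sult1d1, Sult1e1, Sult2a2, Sult2a7, Sult2a8, Sult5a1, Ugt1a9, Ugt2b1 and Ugt3a1. Of these, Sult2a2 and Sult5a1 reached the mean of 1 FPKM only through their CD+7KC values. Sult2a7, below 1 FPKM in both WD libraries, passed the filter through the CD libraries. The counts of these genes as lower are therefore not independent of the filter. Sult1d1 at -1.0 was just past the threshold and Mgst1 at -0.99 just inside it, and after rescaling to equal sums 7 members were lower, beside 1.93% of all tested symbols, and 1 was higher, beside 7.63%. The median was -0.73 over the members and -0.02 over all tested symbols, or -0.53 and 0.18 after rescaling. Ugt3a1, of the family that uses sugars other than glucuronic acid, was at 69 FPKM on CD, 71.4 on CD+7KC, 47.5 on WD and 34.7 on WD+7KC. WD+7KC held the lowest of the 4 values for 26 of 44 members (59.1%), beside 32.9% of all tested symbols, and for 16 members (36.4%, beside 10.8%) after rescaling. Macrophage and endothelial markers were highest in the same library. Of 6 hepatocyte markers, 0 had a change above 0 in WD+7KC relative to WD, with a median of -0.36, beside -0.21 over the members. In WD+7KC relative to CD+7KC, 1 of the 6 was above 0, with a median of -0.23, beside -0.73 over the members. The part of these cells in the values was not tested.

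Most genes that supply or follow the conjugation steps were inside the threshold, as were most tested symbols. Per comparison and direction, 0.767% to 5.1% of all tested symbols were past it, so that counts of 0 in short lists do not set these genes apart. Of 6 tested genes that make or carry PAPS, the sulfate donor, 0 were past the threshold in any comparison, and of 6 tested conjugate exporters likewise 0. The 3 genes of UDP-glucuronic acid supply were likewise inside it, with Ugp2 at 273, 261, 271 and 311 FPKM, Ugdh at 167, 173, 135 and 140, and Slc35d1 at 24.2, 24.1, 22.8 and 19.9. Of 10 tested genes of glutathione supply, 0 were higher in any comparison and 2, Cth and Chac1, were lower in WD than in CD, beside 2.04% of all tested symbols. Cth, which makes the cysteine used for glutathione, was at 176 FPKM on CD, 202 on CD+7KC, 78.6 on WD and 64.8 on WD+7KC. It was also lower in WD+7KC than in CD+7KC (-1.64), beside 2.81% of all tested symbols. Chac1, which degrades glutathione, was at 8.91, 2.05, 3.48 and 2.53 FPKM, with a change of -2.06 with 7KC on chow. Nat8, which acetylates cysteine conjugates to mercapturates, was at 16.1, 17.6, 5.38 and 5.77 FPKM. Of 4 tested genes of the mercapturate steps, only Nat8 was past the threshold. Its change was -1.57 in WD relative to CD and -1.59 in WD+7KC relative to CD+7KC, where 2.04% and 2.81% of all tested symbols were lower.

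Of 12 tested regulators of these enzymes, only Nr1i3, the constitutive androstane receptor, was past the threshold in a comparison. That was WD+7KC relative to CD+7KC (-1.91), where 2.81% of all tested symbols were lower. With 7KC the change of Nr1i3 was 0.67 on CD and -0.61 on WD. It was at 45.6 FPKM on CD, 72.5 on CD+7KC, 29.4 on WD and 19.2 on WD+7KC. Nfe2l2, which encodes Nrf2, was at 36.5, 48.0, 36.3 and 48.0 FPKM. Among 6 genes known as induction markers, Nqo1 was at 12.1, 23.8, 22.3 and 21.5 FPKM, and Cyp2b10 at 32.7, 64.4, 11.0 and 8.14 FPKM. Cyp1a2 was at 74.2, 119, 44.1 and 40.4 FPKM, and Cyp4a14 at 342, 458, 446 and 436 FPKM. The change of Cyp3a11 was -0.10 in CD+7KC relative to CD and -1.17 in WD+7KC relative to WD. Cyp1a1 was below the filter, at 0.305 to 0.861 FPKM. Of 2 genes of glutathione synthesis that Nrf2 is also known to induce, Gclc was at 225, 150, 137 and 140 FPKM and Gclm at 89.4, 80.1, 79.9 and 69.7 FPKM. Nqo1 was lowest in CD, where Gclc and Gclm were highest. Of 6 tested male-biased liver genes, 4 were lower in WD than in CD with a median of -1.98, beside 2.04% of all tested symbols, and 5 were lower in WD+7KC than in CD+7KC, beside 2.81%. Slco1a1, at 3.3 FPKM on CD and at most 0.721 in the other libraries, passed the filter only through CD. Its count as lower in WD is therefore not independent of the filter. Hsd3b5, also listed, was below the filter at no more than 0.117 FPKM. The part of the male-biased genes in the lower Sult2a8 values was not tested. Over 6 tested periportal hepatocyte markers the median change was 0.35 in CD+7KC relative to CD, -0.36 in WD relative to CD and -0.13 in WD+7KC relative to WD. In WD+7KC relative to CD+7KC it was -0.80, and 2 of the 6 were lower, beside 2.81% of all tested symbols. Over 6 tested pericentral markers the median change was 0.30, 0.10, 0.02 and -0.20 in the same 4 comparisons. Pericentral sums of 3963, 3402, 3069 and 1984 FPKM were mostly Cyp2e1, at 3444, 2778, 2585 and 1424 FPKM, while Glul was at 262, 281, 309 and 314 FPKM. The part of either zone in the values of the members was not tested.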

How the data were processed

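Liver RNA of 4 groups was sequenced, each group as 1 library. Stranded mRNA libraries gave the authors 75-base single-end reads, which they mapped to mm10 with TopHat2 2.0.13, Bowtie2 2.2.3 and SAMtools 0.1.19, and from which they deposited FPKM by gene symbol, made with Cufflinks 2.2.1. The gene annotation and the Cufflinks options are not given in the sources used here, and how Cufflinks shared reads between similar genes could move the values of clustered members.

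Members were the symbols matching the GST, MGST, UGT and SULT name patterns. The members and lists were chosen with earlier results of these data known. Log2 changes used a pseudocount of 0.1 and a minimum mean of 1 FPKM. Values in every library were given for the 2 most abundant members of each class, each member past 2-fold in any comparison, and the member of each large family with the largest change in WD+7KC relative to WD. Other members and pathway genes were added beside them after their values were seen. Depth was estimated from the steps of low FPKM values in 14369 genes with 1 RefSeq mRNA, where 72.2% to 74.5% of low values lay within 0.1 of a whole read, using the transcript length minus 200 bases. At 1 FPKM this gives 9.36 to 12.11 reads per kilobase. Exact (Clopper-Pearson) 95% intervals compare estimated reads without a pseudocount, and are given only for members with 1 RefSeq mRNA and at least 50% unique windows. Coordinates came from GENCODE vM21 and promoters from RefSeq.

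Alternatives were pseudocounts of 1 and 0.01, no filter on the mean, equal sums, median-ratio scaling, a threshold of 1.5-fold, and leaving out members with under 50% unique windows, which was chosen after seeing the data. The code was tested on simulated data. Python 3.11.15, numpy 2.4.6, pandas 2.3.3, scipy 1.17.1 and matplotlib 3.10.9 were used.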

Additional observations from a re-analysis of the deposited data

Results flagged for a closer look

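In 4 named genes the library with 7KC was higher on CD and lower on WD, and the change under WD minus that under CD was past -1. The difference was -1.58 for Gstm3, -1.38 for Gstm1, -1.37 for Sult5a1 and -1.07 for Gstt2. With 1 library per group these differences were not tested. After rescaling to equal sums the change of Gstm3 in WD+7KC relative to WD was 0.16 and that of Gstm1 -0.00, while Gstt2 was at -0.12 and Sult5a1 at -0.41. Gstm3 was then above 0 on both diets, and Gstt2 and Sult5a1 kept opposite directions, with changes of 0.78 and 0.86 on CD. For Sult5a1 the counting interval in WD+7KC relative to WD was -1.79 to 0.34, from an estimated 18.7 and 15 reads. Sult5a1 reached the mean of 1 FPKM only through CD+7KC.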

How the results depend on the processing

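With 1 library per group no replicate could be left out, and the values describe these libraries only. Of 384 alternative values of the 24 named members, 327 were counted as within the limit set for a single value and 57 were not. None reversed past the threshold, while 6 of 112 values past the threshold fell inside it and 6 values changed sign. The limit was not the same for all genes. Sult2a7 in WD+7KC relative to WD went from -1.70 to -0.53 with a pseudocount of 1 and counted as within it. Sult2a2 there was 0.00 under every setting but was among the 57. In WD+7KC relative to WD, the members counted as lower became 1 with a pseudocount of 1 (0.384% of all tested symbols), and those counted as higher became 3 without a filter on the mean (6.21%), 2 after rescaling to equal sums (4.71%) and 2 at a threshold of 1.5-fold (7.49%), with the share of all tested symbols under the same setting in parentheses throughout. The members' median there became 0.00 after rescaling, beside 0.18 over all tested symbols. In CD+7KC relative to CD, 9 were higher (3.84%) and 2 lower (2.91%) without the filter, 12 (4.39%) and 1 (3.04%) at 1.5-fold, and 3 were higher (1.18%) without the members of under 50% unique windows. In WD relative to CD, 6 were higher (8.57%) and 13 lower (6.92%) at 1.5-fold. In WD+7KC relative to CD+7KC, 3 were higher (8.01%) and 19 lower (4.61%) without the filter, 1 (7.63%) and 7 (1.93%) after rescaling, and 2 (11.8%) and 26 (8.32%) at 1.5-fold. The causes were not tested, but the filter and threshold change which genes are counted. In the order CD, CD+7KC, WD and WD+7KC, the sums after rescaling to equal sums were 9748, 17444, 13526 and 13781 for GST, 3271, 3512, 2408 and 2355 for UGT, and 522, 516, 310 and 382 for SULT. With median-ratio scaling they were 6893, 12116, 9421 and 8432 for GST, 2313, 2439, 1677 and 1441 for UGT, and 369, 358, 216 and 234 for SULT.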

Other observations

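Genes that work beside the conjugation enzymes but do not carry their symbols were measured too. Alox5ap, which belongs to the same membrane protein family as the MGST genes and serves leukotriene synthesis, was at 2.36 FPKM on CD, 2.02 on CD+7KC, 2.75 on WD and 5.18 on WD+7KC. Gusb, the lysosomal enzyme that removes glucuronic acid, was at 21.0, 20.5, 25.8 and 32.8 FPKM in the same order. Both were highest in WD+7KC, where macrophage markers summed to 341 FPKM, and the part of those cells was not tested. Alox5ap was 1 of 2 tested genes in a list of 6 relatives of the enzymes. The other, Gstcd, was at 1.95, 1.98, 1.44 and 1.63 FPKM. Below the filter, Hpgds, Ltc4s and Ugt8a were highest in WD+7KC and Ptges was lowest there.

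Of the female-biased liver genes only Cyp2b9 and Cyp2b13 had a mean of at least 1 FPKM, and both were highest in CD+7KC. Cyp2b9 was at 97.4, 202, 116 and 100 FPKM, and Cyp2b13 at 9.72, 38.8, 3.66 and 5.11 FPKM. Cyp3a11, a major drug-metabolizing cytochrome, was at 3735, 3491, 2724 and 1214 FPKM. Of the cell markers, 5 of 5 endothelial and 3 of 8 macrophage genes were more than 2-fold higher in WD+7KC than in WD, beside 2.71% of all tested symbols. Stellate cell markers summed to 132 to 169 FPKM. The pancreatic genes Cpa1, Prss2 and Pnlip, the intestinal gene Cdx2 and the adipocyte gene Plin1 were at 0 in all 4 libraries. Other genes of these lists were not: pancreatic Cela1 was at 5.73 to 15 FPKM, intestinal Fabp2 at 208 to 289 and Lgals4 at 5.3 to 7.36, and adipocyte Fabp4 at 66.5 to 143. Intestinal Vil1 was at most 0.156 FPKM. Cfd, which adipocytes also express, was at 220, 63.2, 1.47 and 0.115 FPKM. Of the other adipocyte markers, Retn was at 1.21, 0.241, 0 and 0 FPKM, while Adipoq did not exceed 0.0885 FPKM.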
